A study of Mus musculus with 6 samples.

Results

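Glycolysis and hypoxia genes were followed as a fixed list of 33 symbols for glucose and lactate transport, the glycolytic enzymes and classic targets of the hypoxia-inducible factors (HIF). Of the 33 symbols 32 stood in the deposited count table of 23337 genes and were kept as the members. Pkm, which encodes pyruvate kinase, was in the table only under its older symbol Pkm2 and is given beside the members without being counted among them. A filter on low counts passed 30 of the 32 members, among 12174 genes tested in all. Adm and Eno1 did not pass it.

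Glycolysis splits glucose to pyruvate, and cells short of oxygen, as well as many dividing and activated myeloid cells, turn the pyruvate to lactate and export it. HIF proteins are transcription factors that oxygen-dependent prolyl hydroxylases mark for degradation. When oxygen falls they persist, bind a short core motif near their target genes and raise glucose transporters, most glycolytic enzymes and genes for pH control, mitophagy and vessel growth.

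The study measured polyadenylated RNA of mouse leukemia described as primary and neonatal, with 3 libraries labelled ccl5 (treated with the chemokine CCL5) and 3 labelled control. Ccl5 replicate 1 came from a tertiary transplant, while ccl5 replicates 2 and 3 and control replicate 3 came from a primary transplant; no transplant is stated for control replicates 1 and 2. The titles of the samples also hold neo30 for ccl5 replicate 1 and neo10 for ccl5 replicates 2 and 3. Those of the controls hold neither, and nothing says what these terms mean. The labels give no dose, time, host, age or strain, and nothing in them ties each library to its own animal or culture, so every p-value below measures only the spread between these libraries. In bulk RNA, fewer cells of a type and less RNA per cell cannot be told apart.

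The 6 libraries held 13421100 to 18445095 counts and formed 3 like pairs, 1 of which crossed the labels. Whether a label of that pair was exchanged is not settled by these files, so every comparison below is between libraries as they are labelled. Over all tested genes the correlation of log2 CPM (counts scaled to a common library size) was 0.996 between ccl5 replicate 2 and control replicate 3, 0.995 between ccl5 replicates 1 and 3 and 0.996 between control replicates 1 and 2, against 0.836 to 0.897 for the other pairs. Counts of the like pairs still differed by more than sampling noise, with a chi-square per degree of freedom of 2.86 to 5.69. Each was kept as a library, but such a difference does not show that the libraries of a pair are separate animals or cultures. Summed over 15 neutrophil markers, ccl5 replicate 2 and control replicate 3 reached 16232 and 16002 CPM, against 1110 to 3366 in the others. Summed over 20 proliferation genes they reached 3150 and 3059 CPM, against 250.5 to 1341. Summed over 22 monocyte and macrophage markers they were lowest, at 6074 and 6582 CPM, against 15770 to 28659. Reads of 4 Y-linked genes were absent from ccl5 replicates 1 and 3 and numbered 5103 to 7777 in the other 4 libraries. Of 13 erythroid markers, all the haemoglobin genes were at 0 in every library.

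To show what the members share outside the counts, the promoter window of each gene was searched for ACGTG and GCGTG, the core letters to which HIF binds, on both strands. The windows are RefSeq's (GRCm38.p6), with 250 bases before and 50 after the start, and 29 of 32 members had one; Slc2a3, Bnip3l and Ndrg1 had none, and Ero1l was matched as Ero1a. Shown are 4 windows, those of Bnip3 and Ero1l, 1 hypoxia target higher and 1 lower in the ccl5 group, that of Ldha, which held the most ACGTG matches, and that of Eno2, which had the largest fold change and no match. Matches to either motif on either strand are in capitals.
Bnip3, chr7:138909457-138909756, minus strand: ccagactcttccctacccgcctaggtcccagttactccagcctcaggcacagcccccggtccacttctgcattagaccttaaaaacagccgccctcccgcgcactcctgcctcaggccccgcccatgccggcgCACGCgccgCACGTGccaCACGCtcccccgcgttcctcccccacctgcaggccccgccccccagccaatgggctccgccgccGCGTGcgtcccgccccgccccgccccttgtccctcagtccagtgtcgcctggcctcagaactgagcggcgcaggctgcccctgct
Ero1l, chr14:45318523-45318822, minus strand: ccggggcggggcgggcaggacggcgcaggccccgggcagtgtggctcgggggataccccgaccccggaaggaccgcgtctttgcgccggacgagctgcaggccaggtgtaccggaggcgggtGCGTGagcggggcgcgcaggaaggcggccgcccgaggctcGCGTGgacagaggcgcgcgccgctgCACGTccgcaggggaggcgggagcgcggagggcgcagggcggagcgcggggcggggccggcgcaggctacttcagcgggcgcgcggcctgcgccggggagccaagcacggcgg
Ldha, chr7:46845554-46845853, plus strand: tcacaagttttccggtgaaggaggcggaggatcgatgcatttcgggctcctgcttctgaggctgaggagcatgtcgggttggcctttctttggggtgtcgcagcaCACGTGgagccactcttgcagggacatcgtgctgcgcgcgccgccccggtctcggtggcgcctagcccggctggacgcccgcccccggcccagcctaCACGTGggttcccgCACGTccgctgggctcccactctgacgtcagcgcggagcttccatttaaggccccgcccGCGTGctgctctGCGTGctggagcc
Eno2, chr6:124769624-124769923, minus strand: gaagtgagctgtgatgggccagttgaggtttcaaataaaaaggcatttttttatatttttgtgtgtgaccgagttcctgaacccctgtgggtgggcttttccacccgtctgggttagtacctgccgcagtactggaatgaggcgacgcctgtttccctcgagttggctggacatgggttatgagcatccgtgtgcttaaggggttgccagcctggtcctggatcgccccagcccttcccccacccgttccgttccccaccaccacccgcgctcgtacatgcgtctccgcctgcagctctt

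The Bnip3 window held 2 ACGTG and 3 GCGTG matches and the Ero1l window 1 and 2. The Eno2 window lay wholly upstream of the Eno2 gene as counted, which ends at 124769509. The start used for that window thus differs from the start of the counted gene. In the Ldha window there were 5 ACGTG and 2 GCGTG matches, where each CACGTG, its own reverse complement, counts as 2 overlapping ACGTG matches. ACGTG was found in 21 of 29 members (72.4%), in 21.8% of all 27025 genes with windows and in 29.5% of the 8727 tested genes found there by symbol. GCGTG was found in 19 members (65.5%), 35.15% of all genes and 56.1% of tested genes. At least 1 of the motifs was found in 26 members (89.7%), 46.7% of all genes and 67.5% of tested genes, and the windows of Gpi1, Tpi1 and Eno2 held neither. Member windows were 63.3% G or C, tested genes' 60.7% and all genes' 53.6%, and the part of base composition in the motif shares was not tested. A match is a run of letters in a window and no measure of binding. The list was chosen to hold classic HIF targets, so its motif shares describe that choice and test nothing.

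Across the 6 libraries the members followed the like pairs more than the labels. Ccl5 replicate 2 and control replicate 3 were the 2 lowest libraries for 18 of 30 tested members (60%), against 28.2% of all tested genes, and the 2 highest for 3 members (10%), Slc2a3, Hk1 and Vegfa, against 27.8%. Between these 2 libraries no member differed by as much as 1.5-fold, and the largest difference was 1.25-fold, for Pfkl. Between libraries of different pairs 17 to 19 members differed by more than 1.5-fold. Scaled to library totals without TMM factors, 11 members (36.7%) were lowest in both libraries, against 15.7% of all genes, and 4 were highest (13.3%), against 45.5%. The neutrophil and proliferation sums were highest and the monocyte sum lowest in the same 2 libraries, and their part in the levels of the members was not tested.

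**Figure D1:**
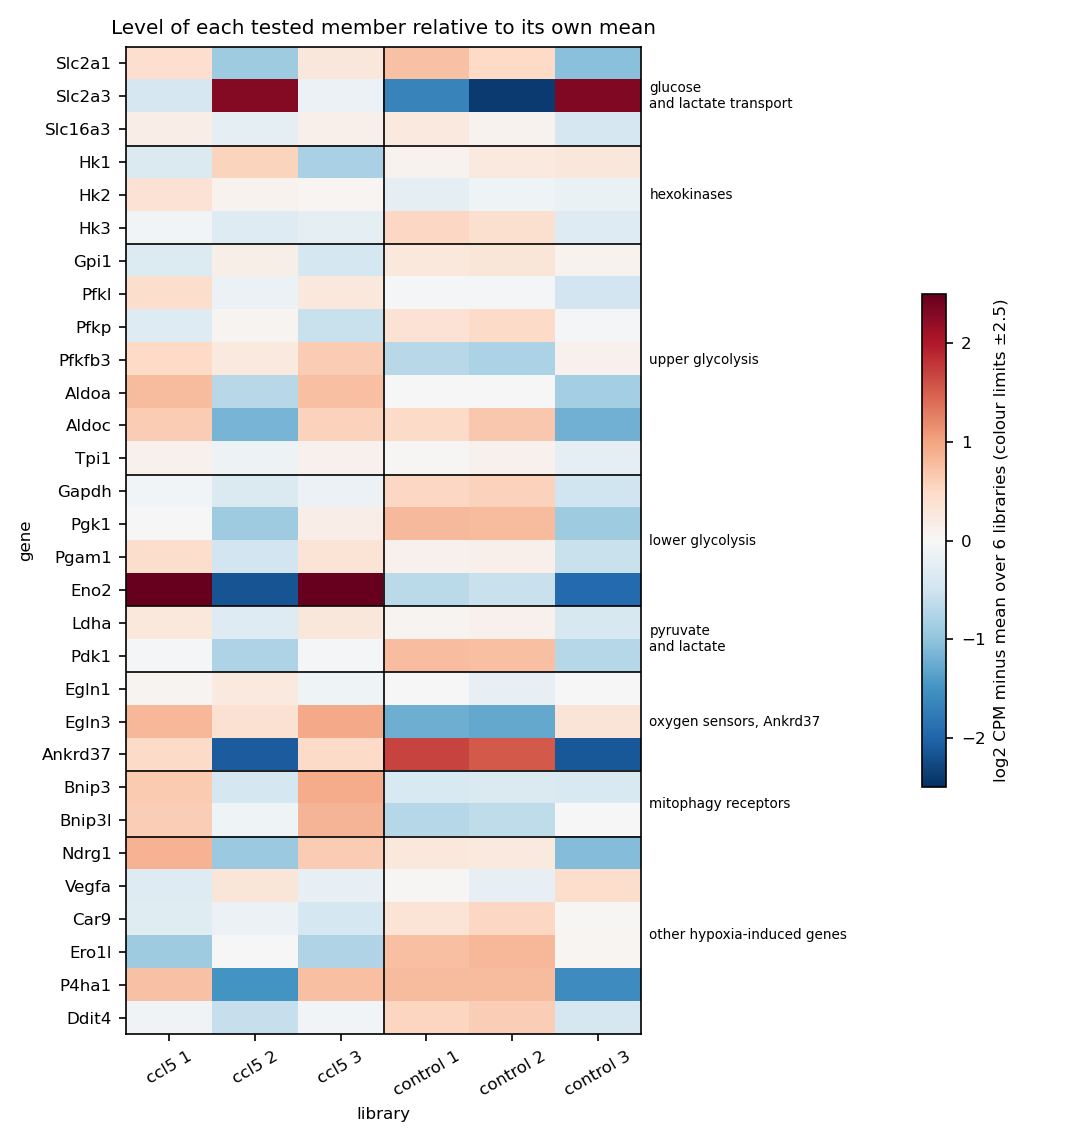
Level of the 30 tested members in each library, as log2 CPM minus the gene's mean over the 6 libraries; rows are genes grouped by role, columns are libraries, red is above and blue below the mean. The columns of ccl5 replicate 2 and control replicate 3 look alike, and both are the lowest for 18 of the 30 genes.

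Between the ccl5 and control groups edgeR's quasi-likelihood test called 0 of 30 members and 0 of 12174 genes (0%) at an adjusted p of 0.05, with 0.365 as the smallest adjusted p. Unadjusted, p was under 0.05 in edgeR for 5 members that were higher in the ccl5 group (Pfkfb3, Bnip3l, Eno2, Egln3 and Bnip3), against 8.99% of all genes, and for 2 that were lower (Car9 and Ero1l), against 4.67%. The 3 ccl5 values lay wholly above the 3 control values for Hk2, Pfkfb3 and Egln3, 3 of 30, against 8.27% of all genes, and wholly below for Car9 and Ero1l, 2 of 30, against 7.49%. As shares, the first count was 16.7% of the members, above its background of 8.99%. The other 3 were 6.67% to 10%, close to their background. The median log2 fold change of the members was 0.03 and that of all tested genes -0.01. Of the 19 transport and glycolysis members 11 had a fold change above 0 and 8 below, with a median of 0.04. Of the 11 oxygen-sensing and hypoxia members 5 were above and 6 below, with a median of -0.04. Unadjusted p was under 0.05 in edgeR for 3 higher and 2 lower members of the hypoxia part (45.5%). In the glycolysis part it was so for 2 higher members (10.5%), against 13.7% of all genes.

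**Figure D2:**
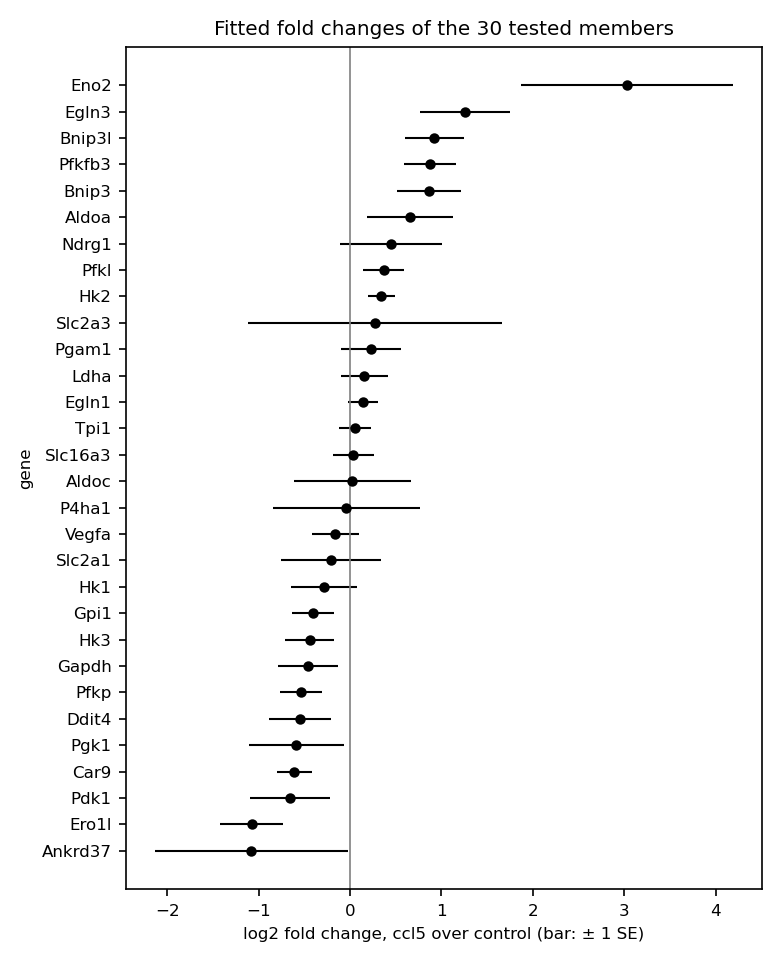
Fitted log2 fold change of ccl5 over control for the 30 tested members, sorted, with bars of 1 SE. The values run from 3.03 for Eno2 to -1.08 for Ankrd37, and the bars are widest for Slc2a3, Eno2 and Ankrd37.

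DESeq2's Wald test called 0 of 29 members, against 1.49% of genes. Limma-voom with quality weights, which gives less weight to libraries far from their group, called 22 of 30, against 66.5%. Without ccl5 replicate 2, edgeR called 6 of 30 members (Hk1, Gpi1 and Ero1l lower, Eno2, Bnip3 and Bnip3l higher), against 26.2% of genes, and without control replicate 3 it called 1, Egln3, against 1.88%. Without both, 11 of 30 members were called higher, against 35.2% of genes, and 12 lower, against 35.5%. That last setting was chosen after the data were seen, and its errors come from the differences within 2 like pairs. It sets ccl5 replicates 1 and 3, which lacked Y-linked reads, against control replicates 1 and 2, which held them. Treatment and the origin of the cells thus cannot be told apart in it. Leaving out ccl5 replicate 2 alone has the same limit, since all the controls held Y-linked reads. That limit applies to each value given below without that library, a setting in which 26.2% of genes were called. As shares of the tested members, the counts of members called were 0%, 73.3%, 20%, 3.33%, 36.7% and 40%, each near its background.

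Per unit length, the most abundant member was Gapdh, at a mean of 1799 RPKM (CPM per kilobase of exon length) over the 6 libraries, followed by Aldoa at 845, Pgk1 at 629, Pgam1 at 503, Gpi1 at 400.1, Ldha at 395, Hk3 at 251 and Tpi1 at 234. Pkm2, at a mean of 682 RPKM, lay between Aldoa and Pgk1. Glucose import and the phosphofructokinases stood far below, with a mean of 15.98 RPKM for Slc2a1, 27.3 for Pfkl and 19.8 for Pfkp. Neighbours from Pgk1 to Ldha overlapped in their ranges over libraries. Levels were summed over 15 enzyme genes from hexokinase to lactate dehydrogenase, the tested members for these steps and Pkm2. Measured genes outside the list for the same steps, such as Pfkm, were left out. The sums were 11747, 8714 and 11262 CPM across the ccl5 libraries and 13264, 13398 and 8077 across the controls. On this TMM scaling the 2 lowest sums were again those of ccl5 replicate 2 and control replicate 3, and the groups overlapped. The order of the sums depends on the scaling. TMM factors were 1.185 and 1.174 in these 2 libraries, against 0.846 and 0.819 in ccl5 replicates 1 and 3. Sums on library totals are not given.

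**Figure D3:**
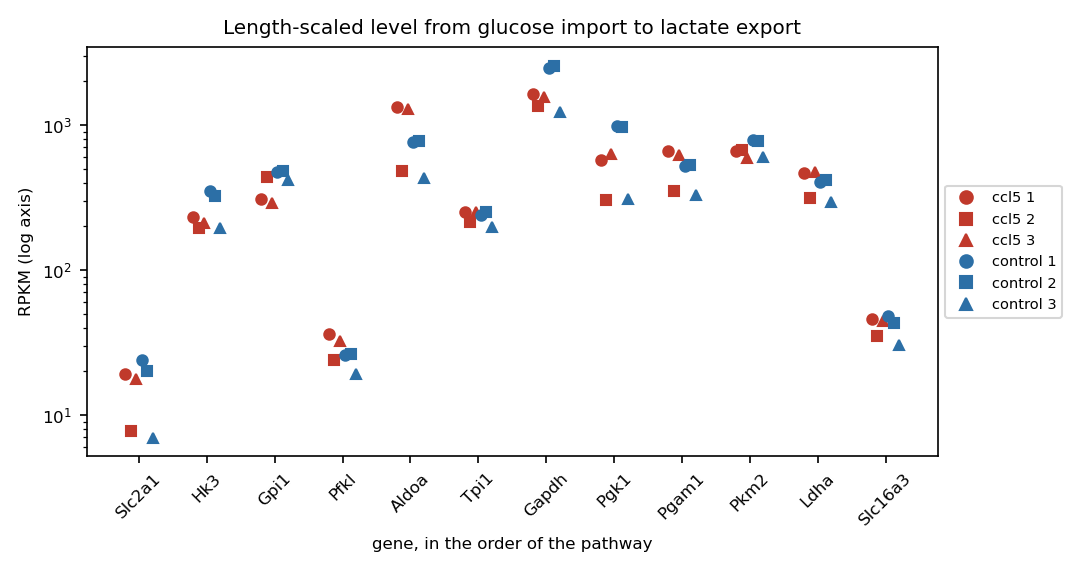
Length-scaled level (RPKM, log axis) of the main gene at each step from glucose import to lactate export, 1 point per library. The enolase step is left out, since the level of Eno1 was not measured. Colour is the group and shape the replicate. Gapdh and Aldoa stand at the top and Slc2a1 and Pfkl at the bottom, and the square ccl5 and triangular control points (ccl5 replicate 2, control replicate 3) lie together at nearly every step.

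Slc2a1, the basal glucose importer GLUT1, was at 49.4, 20.03 and 45.2 CPM in ccl5 replicates 1 to 3 and at 62.0, 52.0 and 17.9 in control replicates 1 to 3. The low libraries were ccl5 replicate 2 and control replicate 3, the groups overlapped, and the log2 fold change of ccl5 over control was -0.20 ± 0.55 (SE). Slc2a3, the high-affinity importer GLUT3, ran the other way, with 2.71, 17.9 and 3.28 CPM across the ccl5 libraries and 1.14, 0.69 and 17.99 across the controls. It was highest in the 2 libraries where Slc2a1 was lowest, and its log2 fold change was 0.27 ± 1.39. Slc16a3, the lactate exporter MCT4, varied least of the 3, from 90.1 to 118 CPM across the ccl5 libraries and from 78.5 to 125 across the controls. Its log2 fold change of 0.04 ± 0.22 took the other sign on library totals.

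Of the hexokinases, which trap glucose by phosphorylation, Hk3 dominated in RPKM. It gave 640 to 764 CPM across the ccl5 libraries and 641 to 1142 across the controls, with control replicates 1 and 2 above every other library. Its log2 fold change was -0.44 ± 0.27. Hk2, the inducible form, was at 70.2, 57.8 and 56.6 CPM across the ccl5 libraries and at 46.6, 50.5 and 48.6 across the controls (chr6:82725027-82774454, mm10). All ccl5 values lay above all control values, and the log2 fold change was 0.34 ± 0.15, with an adjusted p of 0.371 by edgeR; on library totals the groups overlapped. Hk1, the housekeeping form, ranged from 68.4 to 177 CPM across the ccl5 libraries and from 127 to 144 across the controls, with ccl5 replicate 2 the highest library. Its log2 fold change was -0.29 ± 0.36, and -0.77 without ccl5 replicate 2, with an adjusted p of 0.0337 by edgeR.

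In upper glycolysis the only gene whose groups did not overlap was Pfkfb3 (chr2:11471431-11553929), which makes the fructose bisphosphate that activates phosphofructokinase. It was at 178, 148 and 196 CPM across the ccl5 libraries and at 77.4, 73.0 and 134 across the controls. Control replicate 3 came close to ccl5 replicate 2, and on library totals the groups overlapped. The log2 fold change was 0.87 ± 0.28, with an adjusted p of 0.365 by edgeR. Pfkp, the platelet-type phosphofructokinase, was at 60.8, 80.1 and 51.9 CPM across the ccl5 libraries and at 98.1, 107 and 74.6 across the controls, a log2 fold change of -0.54 ± 0.23. Pfkl, the liver type, was at 89.3 to 135 CPM across the ccl5 libraries and 71.3 to 98.1 across the controls, a log2 fold change of 0.37 ± 0.22. Gpi1, which isomerises glucose phosphate, gave 884, 1245 and 822 CPM across the ccl5 libraries and 1344, 1374 and 1186 across the controls, with only ccl5 replicate 2 reaching the control range; its log2 fold change was -0.40 ± 0.23. Without ccl5 replicate 2 that of Gpi1 was -0.61, with an adjusted p of 0.037 by edgeR.

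Aldoa, the main aldolase, was at 2419 and 2366 CPM in ccl5 replicates 1 and 3 but 875 in ccl5 replicate 2. In the controls it was at 1398, 1412 and 781 CPM, so each like pair had a level of its own and the groups overlapped. The log2 fold change of Aldoa was 0.66 ± 0.47, with an adjusted p of 0.538 by edgeR. Aldoc, the brain-type aldolase, lay between 25.7 and 29.3 CPM in 4 libraries and at 8.31 and 8.09 CPM in ccl5 replicate 2 and control replicate 3. Tpi1, which interconverts the triose phosphates, ranged from 316 to 403 CPM over all libraries. The log2 fold changes of Aldoc and Tpi1, 0.03 ± 0.64 and 0.06 ± 0.18, took the other sign on library totals.

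In lower glycolysis Gapdh, which oxidises glyceraldehyde phosphate, was at 2025, 1656 and 1917 CPM across the ccl5 libraries and at 3029, 3161 and 1512 across the controls. Control replicates 1 and 2 were the high libraries and control replicate 3 the lowest of all, for a log2 fold change of -0.46 ± 0.33. Pgk1, which yields the first ATP of the pathway, was also highest in control replicates 1 and 2, with 1030, 547 and 1143 CPM across the ccl5 libraries and 1776, 1751 and 552 across the controls. Its log2 fold change was -0.58 ± 0.52. Pgam1, the phosphoglycerate mutase, lay higher in ccl5 replicates 1 and 3 (1209 and 1134 CPM) than in control replicates 1 and 2 (960 and 976), while ccl5 replicate 2 and control replicate 3 were at 642 and 605. Its log2 fold change was 0.23 ± 0.33. These enzymes have many processed pseudogenes, and reads shared with them can be assigned to either copy.

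Eno2, the neuronal enolase, had the largest fold change of the members and was high in 2 libraries only (chr6:124760055-124769509). It was at 22.0 and 26.5 CPM in ccl5 replicates 1 and 3 and at 0.86 in ccl5 replicate 2, and at 2.41, 2.61 and 0.99 CPM across the controls. Ccl5 replicate 2 was thus below every control, the groups overlapped, and the log2 fold change of 3.03 ± 1.16 had an adjusted p of 0.365 by edgeR. Without ccl5 replicate 2 it was 3.60, with an adjusted p of 0.00806 by edgeR. Eno1, the main enolase of most cells, gave 0 to 6 counts in any library. Of its 1776 exon bases 1649 (92.8%) also belonged to Gm5506 in the annotation used for counting, so most of its reads fell in 2 genes at once and its level was not measured here. Pkm2, the pyruvate kinase row, was at 1712, 1753 and 1526 CPM across the ccl5 libraries and at 2051, 2028 and 1569 across the controls, a log2 fold change of -0.18 ± 0.21.

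Ldha, which reduces pyruvate to lactate, was at 896, 600.3 and 912 CPM across the ccl5 libraries and at 785, 810 and 566 across the controls. Within each like pair the values differed by little, and the log2 fold change of 0.16 ± 0.26 took the other sign on library totals. Pdk1, the kinase that shuts pyruvate dehydrogenase and so keeps pyruvate from the mitochondria, was at 70.9, 42.8 and 71.2 CPM across the ccl5 libraries and at 124, 123 and 44.6 across the controls. Control replicates 1 and 2 stood above the other 4 libraries, and the log2 fold change was -0.66 ± 0.44.

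Of the oxygen sensors in the list, which hydroxylate HIF and are themselves HIF targets, Egln3 (chr12:54178981-54203874) kept the groups apart and Egln1 did not. Egln3 was at 59.8, 43.5 and 64.3 CPM across the ccl5 libraries and at 14.4, 13.8 and 41.9 across the controls. No ccl5 value was below a control value, on TMM or on library totals, yet control replicate 3 lay just under ccl5 replicate 2. The log2 fold change was 1.26 ± 0.49, with an adjusted p of 0.365 by edgeR. Without control replicate 3 it was 1.995, with an adjusted p of 0.0393 by edgeR. That setting leaves as controls only the like pair of replicates 1 and 2, for which no transplant is stated. Egln1 ranged from 27.5 to 35.3 CPM across the ccl5 libraries and from 25.7 to 29.9 across the controls, and its log2 fold change of 0.14 ± 0.17 took the other sign on library totals. Ankrd37, an ankyrin-repeat HIF target, was at 8.62, 1.47 and 8.65 CPM across the ccl5 libraries and at 20.04, 18.02 and 1.43 across the controls, with a log2 fold change of -1.08 ± 1.05.

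Both mitophagy receptors, proteins of the outer mitochondrial membrane that mark mitochondria for removal, were higher on average in the ccl5 group. Bnip3 (chr7:138890836-138909506) was at 109, 50.8 and 131 CPM across the ccl5 libraries and at 53.1, 53.6 and 53.0 across the controls. The 4 libraries other than ccl5 replicates 1 and 3 were nearly equal, and the log2 fold change was 0.86 ± 0.35, with an adjusted p of 0.365 by edgeR. Bnip3l (chr14:66985240-67008877) was at 311, 187 and 365 CPM across the ccl5 libraries and at 124, 131 and 200.1 across the controls. Control replicate 3 was above ccl5 replicate 2, so the groups overlapped, and the log2 fold change was 0.92 ± 0.32, with an adjusted p of 0.365 by edgeR. Without ccl5 replicate 2 the values were 1.17 for Bnip3 and 1.16 for Bnip3l, with adjusted p of 0.00555 and 0.0314 by edgeR.

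Of the other hypoxia-induced genes, every ccl5 value of Ero1l and Car9 was below every control value. Ero1l (chr14:45283087-45318572), which drives disulfide bond formation in the endoplasmic reticulum, was at 204, 381 and 223 CPM across the ccl5 libraries and at 636, 674 and 390 across the controls. The gap between ccl5 replicate 2 and control replicate 3 was small, and the log2 fold change was -1.07 ± 0.34, with an adjusted p of 0.365 by edgeR. Without ccl5 replicate 2 it was -1.40, with an adjusted p of 0.0242 by edgeR. Car9 (chr4:43507026-43513725), a membrane carbonic anhydrase that exports acid equivalents, was at 19.7, 21.9 and 17.9 CPM across the ccl5 libraries and at 30.9, 35.0 and 25.0 across the controls. Its log2 fold change was -0.61 ± 0.19, with an adjusted p of 0.365 by edgeR. Both genes kept the groups apart on library totals.

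P4ha1, a subunit of the collagen prolyl hydroxylase, followed the like pairs alone. It was at 45.01 CPM in ccl5 replicate 2 and 42.7 in control replicate 3 and between 211 and 221 in the other 4 libraries, with a log2 fold change of -0.04 ± 0.80. Ndrg1, a stress-induced differentiation gene, was at 39.9 and 36.1 CPM in those 2 libraries, 139 and 119 in ccl5 replicates 1 and 3 and 92.1 and 90.1 in control replicates 1 and 2, a log2 fold change of 0.45 ± 0.56. Vegfa, the vascular growth factor, was highest in them, at 221 and 243 CPM against 143 to 183, and its log2 fold change was -0.16 ± 0.26. Ddit4, an inhibitor of mTORC1, was at 11.4 to 16.4 CPM across the ccl5 libraries and 12.7 to 26.4 across the controls, a log2 fold change of -0.55 ± 0.34, and the groups did not overlap on library totals. Adm, a vasodilator peptide, had 4 counts in ccl5 replicate 2 and 0 in the other 5 libraries, and 3 counts correspond to 0.16 to 0.273 CPM here.

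**Figure D4:**
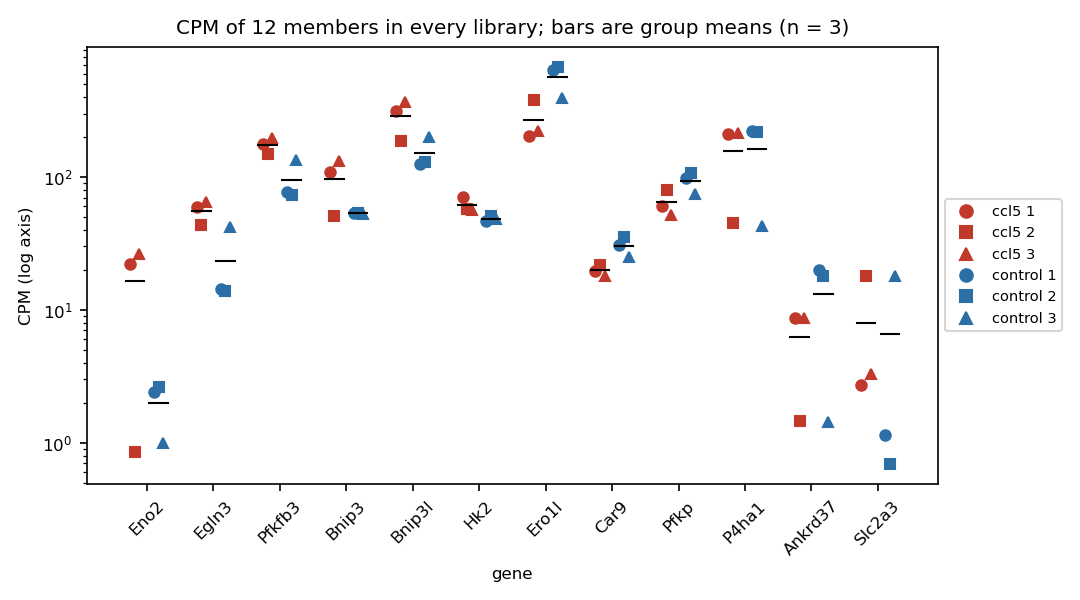
CPM (log axis) of 12 members in every library, with black bars at the mean of the 3 libraries of a group; colour is the group and shape the replicate. For Hk2, Egln3, Pfkfb3, Car9 and Ero1l the groups do not overlap, while for P4ha1, Ankrd37 and Slc2a3 ccl5 replicate 2 (red square) and control replicate 3 (blue triangle) stand together away from the rest.

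The make-up of the isoform families was compared as the share of an isoform in the summed RPKM of the listed genes of its family. This share does not depend on library scaling. Hk3 made up 79.8% to 90.5% of the hexokinases in every library. Hk2 made up 4.77%, 4.27% and 4.35% across the ccl5 libraries and 2.19%, 2.52% and 3.72% across the controls, with no overlap. Pfkp made up 29.7%, 45.5% and 28.8% of Pfkl and Pfkp across the ccl5 libraries and 48.6%, 50.4% and 49.4% across the controls, also with no overlap. By an exact two-sided permutation test both had p = 0.1, the smallest that 3 against 3 allows, and 0.4 after Benjamini-Hochberg adjustment over 8 shares. Egln3 made up 71.6%, 61.9% and 75.5% of Egln1 and Egln3 across the ccl5 libraries and 39.1%, 41.4% and 64.8% across the controls, which overlapped (exact permutation p = 0.2). Egln2, a further HIF hydroxylase outside the list, is not in this share. Its mean of 19.05 RPKM over all libraries was above 14.8 for Egln3 and 8.48 for Egln1, and its groups overlapped. The Slc2a3 share followed the like pairs, at 36.7% and 39.5% of Slc2a1 and Slc2a3 in ccl5 replicate 2 and control replicate 3 and 0.858% to 4.49% elsewhere.

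**Figure D5:**
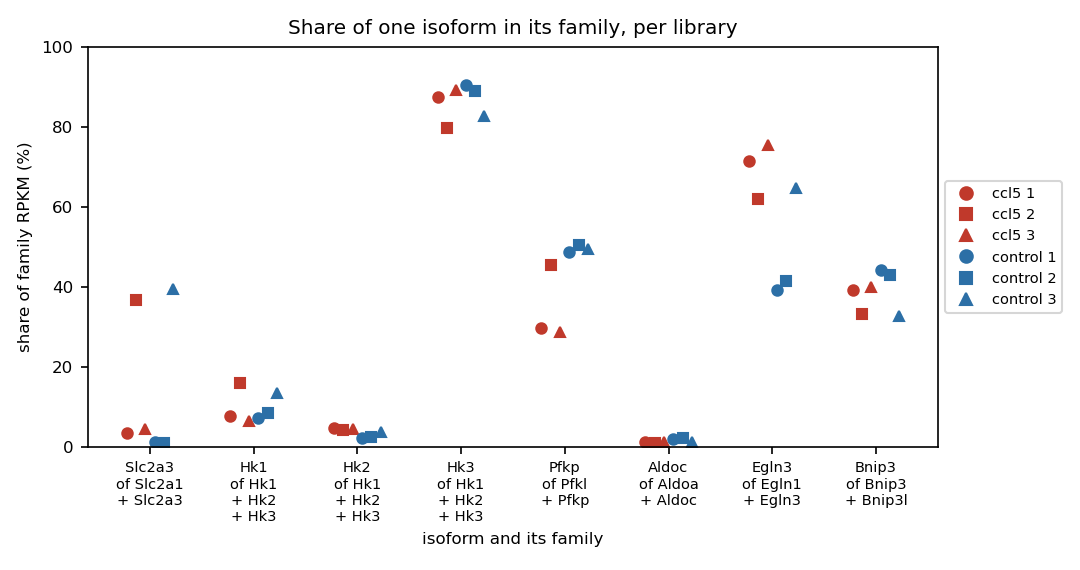
Share of an isoform in the summed RPKM of the listed genes of its family, in percent, 1 point per library. Colour is the group and shape the replicate. Hk3 holds most of the hexokinase signal in all libraries, and the Pfkp share of the 3 controls (48.6% to 50.4%) lies above that of the 3 ccl5 libraries (28.8% to 45.5%).

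With ccl5 replicate 2 and control replicate 3 both left out, 15 of 19 transport and glycolysis members passed edgeR's threshold, 7 higher and 8 lower, and 8 of 11 oxygen-sensing and hypoxia members, 4 higher and 4 lower. These shares were near those of all genes in the same fit, 35.2% called higher and 35.5% lower. Some steps of the pathway and some paired isoforms had opposite signs, as they also had in the fit of all libraries. Aldoa was at 0.79 ± 0.10 and Gapdh at -0.63 ± 0.10 on the log2 scale, Pfkl at 0.40 ± 0.09 and Pfkp at -0.84 ± 0.09, and Slc2a3 at 1.73 ± 0.33 and Slc2a1 at -0.25 ± 0.10. Among hypoxia targets Egln3 was at 2.15 ± 0.11, Bnip3l at 1.42 ± 0.09 and Bnip3 at 1.18 ± 0.10, while Ero1l was at -1.60 ± 0.10, Ankrd37 at -1.12 ± 0.14 and Car9 at -0.79 ± 0.12. The 7 members not called were Slc16a3, Aldoc, Tpi1, Ldha, Egln1, Vegfa and P4ha1. Between the 2 libraries left out, 1 of each label, no member differed by 1.5-fold.

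Genes around the members were read from lists of the same pathways. Of 17 tested HIF pathway regulators 12 had a fold change above 0 and 5 below, with a median log2 value of 0.28, and edgeR called none at an adjusted p of 0.05. Hif1a, the oxygen-regulated subunit, was at 324, 192 and 357.5 CPM across the ccl5 libraries and at 190, 192 and 199 across the controls, so that ccl5 replicates 1 and 3 stood apart from 4 nearly equal libraries. Arnt, its constant partner, was laid out alike, with 155, 73.9 and 162 CPM across the ccl5 libraries and 75.5 to 85.2 across the controls. Epas1, a paralogue of Hif1a, was at 8.76, 4.03 and 8.01 CPM across the ccl5 libraries and 2.92 to 3.96 across the controls, without overlap, a log2 fold change of 1.03 ± 0.38. Cited2, which competes with HIF for its coactivator, was at 73.5 to 117 CPM against 55.6 to 73.0, a log2 fold change of 0.68 ± 0.23. Vhl, the ligase subunit that binds hydroxylated HIF, had a log2 fold change of 0.31 ± 0.17. Hif1an, an asparagine hydroxylase of HIF, had one of 0.21 ± 0.14. For Vhl and Hif1an, as for Epas1 and Cited2, the groups did not overlap, but ccl5 replicate 2 lay barely above control replicate 3. The values were 25.65 against 25.52 CPM for Vhl, 47.5 against 47.2 for Hif1an, 4.03 against 3.96 for Epas1 and 73.5 against 73.0 for Cited2. Overlap on library totals is not given for the genes of these lists.

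Of 40 tested genes in a further list of hypoxia-induced genes 23 were above 0 and 17 below, with a median of 0.19. Car12, a carbonic anhydrase like Car9, was at 1.001 to 1.28 CPM across the ccl5 libraries and 13.8, 13.3 and 1.43 across the controls, and Fam162a, a mitochondrial protein, at 27.2 to 31.8 against 215, 195 and 31.2. In both, control replicates 1 and 2 were the only high libraries. Of 10 tested transport genes, Emb, the partner of lactate transporters, was at 803 to 996 CPM against 1016 to 1703, without overlap, and Brp44 (Mpc2), a subunit of the mitochondrial pyruvate carrier, at 41.5 to 53.0 against 37.7 to 40.9. Txnip, which restrains glucose uptake, followed the like pairs, at 79.6 and 94.9 CPM in ccl5 replicate 2 and control replicate 3 and 515 to 603 elsewhere. Of 19 other glycolytic and gluconeogenic genes, Pfkfb1 and 9630033F20Rik (Tigar), which removes the activator that Pfkfb3 makes, had log2 fold changes of -1.23 ± 0.50 and -0.84 ± 0.33.

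Among 12 enzymes of pyruvate and lactate, Ldhb, the second lactate dehydrogenase subunit, had a log2 fold change of 1.47 ± 0.54 at 0.57 to 3.28 CPM, and Dld, a shared subunit of the mitochondrial dehydrogenases, one of -0.47 ± 0.17. In the pentose phosphate pathway, which branches off at glucose phosphate, 4 of 11 genes were above 0 and 7 below. H6pd, its enzyme in the endoplasmic reticulum, was at 109 to 149 CPM against 65.0 to 97.5, without overlap, while Pgd, the cytosolic phosphogluconate dehydrogenase, was at 576 to 908 against 860 to 1264. Of 13 glycogen genes 7 were above 0 and 6 below, and Pygb, a glycogen phosphorylase, had a log2 fold change of 0.95 ± 0.31. The smallest adjusted p in each of these 7 lists was 0.365 by edgeR.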

How the data were processed

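The data were raw counts of reads per gene in 6 libraries, as deposited, beside a gene length in bases (an other, unmeasured value). Per the file headers, primary alignments were counted with featureCounts 1.5.1 on an mm10 annotation. The submitters' processing notes also name Trimmomatic, Bowtie, TopHat and DESeq2, with no versions. No strand option was set, so overlapping genes cannot be told apart. Depth was 13421100 to 18445095 counts per library, and 3 counts correspond to 0.16 to 0.273 CPM.

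Groups came from the treatment labels, 3 libraries each. Counts were scaled by TMM, filtered with filterByExpr (minimum count 10) and tested two-sided in R 4.3.3 with the quasi-likelihood test of edgeR 4.0.16, using Benjamini-Hochberg adjustment over 12174 genes. Fold changes are ccl5 over control, and their SE was taken from the F statistic. The script was tested on simulated counts. CPM uses TMM-scaled library sizes, and RPKM divides it by the file's gene length. Isoform shares were compared with exact permutation tests. The members, the lists and the tests were chosen with earlier results of these data known. Values are given for the 5 members with the smallest p in each direction, the 5 highest in RPKM and 10 chosen members, with the others by level or range. From each further list the 2 genes with the smallest p and 6 chosen regulators were named; 1 gene that this rule names is not reported here. Alternatives were DESeq2 1.42.0 (size factors and Wald test), limma-voom (limma 3.58.1), 2 other filters, a threshold of 0.1, leaving out each library, and subsets by transplant and by Y-linked reads. Library totals without TMM and leaving out 2 libraries at once were chosen after seeing the data. Promoter windows are RefSeq's, on GRCm38.p6, and the annotation assigns 92.8% of the exon bases of Eno1 also to Gm5506.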

Additional observations from a re-analysis of the deposited data

How the results depend on the processing

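No paired analysis was possible because the titles number the replicates of the controls only and give those of the ccl5 libraries a letter, so no replicate number is shared. The number of genes called was 0 with DESeq2 size factors, both other filters, library totals, a threshold of 0.1 and both subsets of libraries, but 192 by DESeq2's Wald test, 8097 by limma-voom and 0 to 3299 with each library left out in turn. The number of members called was 22 by limma-voom and 0 to 6 with each library left out. With ccl5 replicate 2 and control replicate 3 both left out, chosen after seeing the data, 8797 genes and 23 members were called. The members' median log2 fold change, 0.03 over all libraries, was 0.34 in the primary transplant libraries and -0.33 in the libraries with Y-linked reads, and -0.08 to 0.15 with each library left out; the first subset holds a lone control and the other a lone ccl5 library, assumed to vary like the other group. The cause of these differences was not tested. Library totals, also chosen after seeing the data, moved the median of all genes to -0.17 and that of the members to -0.18.

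Fold changes changed sign for 13 named members. In the primary transplant libraries they were 0.036 for Hk3, 0.22 for Gapdh, 0.59 for Pgk1, 0.84 for Slc2a1, -0.77 for Slc2a3 and 0.34 for Pdk1. In the libraries with Y-linked reads they were -1.22 for Eno2, -0.070 for Bnip3, -0.46 for Aldoa, -0.40 for Pgam1, -0.27 for Ldha, 0.19 for Vegfa and -0.22 for Slc16a3. On library totals Ldha was at -0.047 and Slc16a3 at -0.15, and Slc16a3 was at -0.020 by limma-voom and -0.0047 without both libraries. With each library left out, Slc2a1 ran from -0.57 to 0.13, Slc2a3 from -1.15 to 3.13, Vegfa from -0.37 to 0.047 and Slc16a3 from -0.12 to 0.18. The difference in the Hk2 share, 1.66 percentage points, was 2.58 without division by length. Depth limits Adm, at 0 to 4 counts, while the lowest count of a tested member was 13, for Slc2a3 in control replicate 2.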
